A study of Cavia porcellus with 12 samples.

Results

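The miR-23, miR-27 and miR-24 clusters are a pair of miRNA gene clusters that arose by duplication: mir-23a, mir-27a and mir-24-2 form the mir-23a cluster, and mir-23b, mir-27b and mir-24-1 form the mir-23b cluster. Their members were taken as every deposited entry whose name ended in 1 of these 6 human precursors (hsa-mir-23a, hsa-mir-27a, hsa-mir-24-2, hsa-mir-23b, hsa-mir-27b and hsa-mir-24-1), and an entry is 1 sequence listed under 1 precursor with its start position. There were 97 such entries of 5095 over the 3 tables of the series, 42 in the mir-23a cluster and 55 in the mir-23b cluster. The table of DOX 1 h and DMSO 1 h listed 79 of them among 1610 entries, that of DOX 22 h and DMSO 22 h 63 among 1335, and that of DOX 22 h and DOX 1 h 95 among 4979. Small RNA came from ventricular cardiomyocytes isolated from the hearts of adult female Hartley guinea pigs and exposed to DMSO as the vehicle or to 10 µM doxorubicin (DOX), an anthracycline given to cancer patients. Exposure lasted 1 h or 22 h, which gives DOX 1 h, DMSO 1 h, DOX 22 h and DMSO 22 h, each with 3 libraries. The cells of all groups had been freed by enzymatic dissociation and kept at room temperature, and the sources do not say which libraries share an animal. In bulk samples, fewer cells of a type and less RNA per cell cannot be told apart.

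A miRNA precursor is a hairpin whose stem is cut into a short duplex. One strand, the guide, is loaded into an Argonaute protein, and the other, the passenger, is mostly lost. The guide pairs with messenger RNAs chiefly through the seed, a short stretch near its 5′ end, so a strand that begins a base earlier or later carries another seed. In all 6 hairpins the 3p arm is the usual guide and the 5p arm the usual passenger. In mammals each cluster is transcribed together, and the mir-23b cluster lies in an intron of the aminopeptidase gene AOPEP. In the heart, miR-23a is known as a miRNA of hypertrophic growth and miR-24 as a regulator of cardiomyocyte survival, and miR-27 is known for its part in lipid metabolism.

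The deposited sequences show how little separates the clusters on the guide arm. The most abundant 3p sequence of each precursor is printed 5′ to 3′, and capitals mark the bases at which the members of a pair differ.
mir-23a 3p, start 46: cacattgccagggattTcca
mir-23b 3p, start 59: cacattgccagggattAcca
mir-27a 3p, start 52: cacagtggctaagttcCgT
mir-27b 3p, start 62: cacagtggctaagttcTgC
mir-24-2 3p, start 51: gctcagttcagcaggaacag
mir-24-1 3p, start 45: gctcagttcagcaggaacag
Counted from 1 at the 5′ end, the printed sequences of mir-23a and mir-23b differed by T17A, and those of mir-27a and mir-27b by C17T and T19C. T19 is the last base of the printed mir-27a form. Whether its precursor encodes that base was not checked, since no reference sequence was at hand. The 3p sequences of mir-24-2 and mir-24-1 were identical over all 20 bases. No difference lay before position 17, so the part of a guide that holds the seed was the same within each pair. The deposited 3p sequences printed here begin slightly downstream of the textbook 5′ ends of these miRNAs, for which no reference table was at hand. Starts and positions on both arms are therefore those of the deposited sequences, and no seed is marked.

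The passenger arms are more distinct. For each pair, the commonest 5p form of the mir-23a cluster member in the table of DOX 22 h and DOX 1 h is printed. Below it stands the commonest form of its paralog at the start whose bases match best. This start is not the commonest for mir-23b and mir-24-1, where it held 31.0% and 6.97% of the 5p sum in that table. Capitals mark the bases that differ when compared position by position, with no gap allowed.
mir-23a 5p, start 10: ggttcctggGGATGGgatt
mir-23b 5p, start 21: ggttcctggCATGCTgattt
mir-27a 5p, start 11: GgcttagctgCttgTGAGCA
mir-27b 5p, start 20: AgcttagctgAttgGTGAAC
mir-24-2 5p, start 14: cctactgagctgaAaCACAGt
mir-24-1 5p, start 8: cctactgagctgaTaTCAGT
Compared in this way, the members of the miR-23 pair differed at 6 of 19 bases, those of the miR-27 pair at 8 of 20 and those of the miR-24 pair at 6 of 20. Bases shared behind an inserted or lost base count as differences here, so with a gap the miR-27 and miR-24 pairs would differ at fewer bases. The miR-27 pair differed at the first base (G1A), and the first difference of the other pairs was further in, at G10C for miR-23 and A14T for miR-24.

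The tables give means over both groups of a comparison, in normalized counts (reads divided by DESeq2 size factors), and the 3 tables were normalized separately. Summed over its 5p and 3p entries, mir-27b was the most abundant member in each table, with 180557 normalized counts in the table of 1 h, 139638 in that of 22 h and 159010 in that of both DOX times. It ranked 6 of 243, 8 of 224 and 8 of 287 precursors by this sum. The other members followed in the same order in every table, namely mir-24-2, mir-24-1, mir-27a, mir-23a and mir-23b, with mir-23b the lowest at 49441, 31960 and 39812 normalized counts. The neighbours mir-24-2 and mir-24-1 hold the same guide sequences, listed about evenly under both names, so their order follows the distinct passenger arms. No spread between libraries could be had for any of these means. Together, the 6 precursors held 9.58% of the summed means at 1 h, 9.35% at 22 h and 9.03% in the table of both DOX times.

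**Figure D1:**
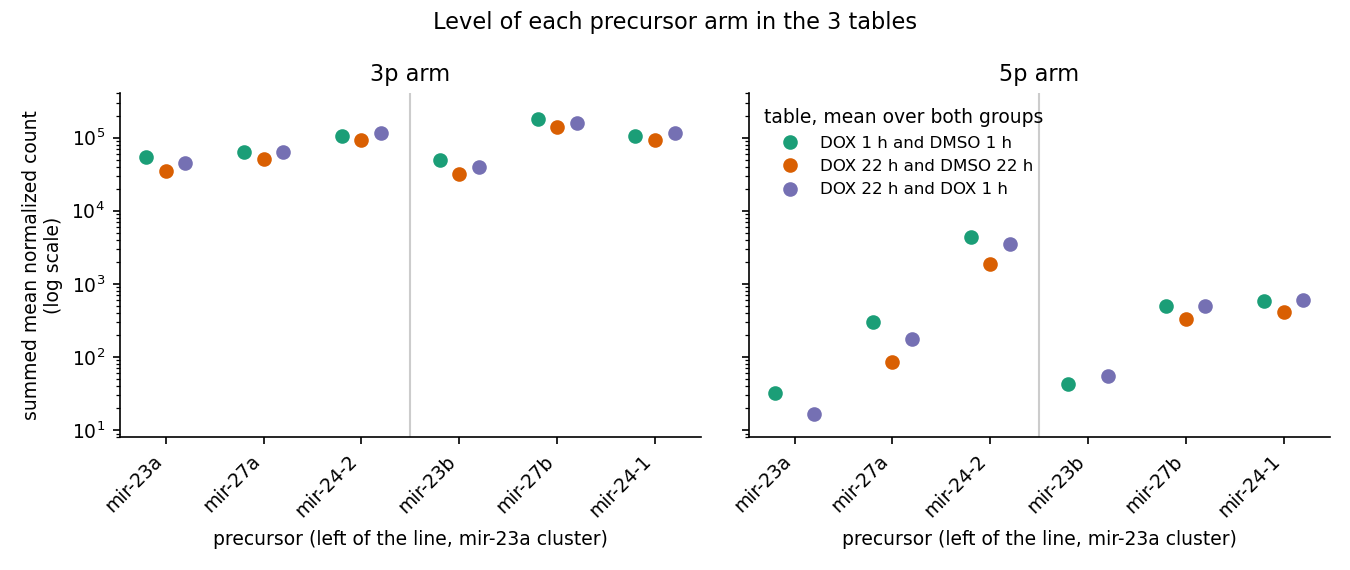
Summed mean normalized count of each precursor arm (y axis, log scale) for the 6 precursors (x axis), with 1 point for each of the 3 tables and each point the authors' mean over both groups, summed over the sequences of the arm. The 3p sums lie between 31960 and 180051 normalized counts and the 5p sums between 16.6 and 4421, and both miR-23 5p arms have no point for the table of 22 h, where none of their sequences is listed.

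The guide arm dominated in all members, and mir-24-2 kept by far the most passenger. Over the 6 precursors, the 5p arm held 1.05% of the summed mean at 1 h, 0.599% at 22 h and 0.893% in the table of both DOX times. For mir-24-2 it held 4.07%, 1.93% and 2.94%, with 5p sums of 4421, 1844 and 3495 normalized counts. For its paralog mir-24-1 the 5p arm held 0.555%, 0.433% and 0.522%.
The 5p arm of mir-24-2 was thus 7.56, 4.53 and 5.78 times as abundant as that of mir-24-1. The 3p sums of this pair were set by the listing, since each identical sequence was counted about evenly under both names, and both 5p shares rest on guides divided in this way. Over both precursors together, the 5p arm held 2.34%, 1.19% and 1.74% (1 h, 22 h and both DOX times). The most abundant 5p sequence of mir-24-2, the 21-base form printed above, had 1965 normalized counts at 1 h and 1516 in the table of both DOX times, and was not analysed here at 22 h, where no row for it was found. Over the 5p and 3p entries present in all 3 tables, the mir-24-2 share was 2.29% at 1 h, 1.93% at 22 h and 1.67% in the table of both DOX times, so most of the gap between the tables rests on that 1 sequence.

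In the miR-27 pair, the passenger arm of mir-27a was at 301 normalized counts at 1 h, 86.7 at 22 h and 174 in the table of both DOX times. That of mir-27b was at 505, 336 and 496. The share of the pair's 5p sum that came from mir-27b was thus 62.7% at 1 h and 79.5% at 22 h. The value at 1 h depends on where the lost decimal mark of 1 sequence, the printed 20-base form, is placed. Set by the table of 22 h instead, the mir-27a 5p sum at 1 h is 104. The sum of 301 holds this form at 218 normalized counts, and the 19-base form is at 82.1. In the DOX 1 h library, taken apart below, the 20-base form had 191 reads and the 19-base form 79. The miR-23 passenger arms were near the floor of the tables, at 32.8 and 16.6 normalized counts for mir-23a and at 42.7 and 55.1 for mir-23b at 1 h and in the table of both DOX times, and none of their sequences was listed at 22 h.

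On the guide arm, the miR-23 and miR-27 pairs can be told apart at position 17, while the mir-24 guide cannot be placed in either cluster. By the entries' own names, the mir-23b cluster held 59.6% of the summed mean of the 6 precursors at 1 h, 59.5% at 22 h and 58.0% in the table of both DOX times. Of 87 member sequences, 10 were listed under both members of a pair. Leaving out the mir-24 guide alone, an alternative chosen after seeing the data, put the share of the mir-23b cluster at 65.2%, 66.4% and 64.0%. Leaving out all 10 sequences put it at 76.3%, 78.2% and 76.4%. That also removed the most abundant mir-27a guide sequence, so that the mir-27a 3p sum at 1 h went from 64041 to 14458 normalized counts, and it kept of the mir-24 guide 1 form of 14 bases, with a mean of 4.85 in the table of both DOX times.

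The miR-23 guide came almost evenly from both clusters. At position 17, 99.8% of the 3p sum listed under mir-23a at 1 h carried the base of mir-23a, and 99.2% of that under mir-23b carried the base of mir-23b. The sums were 54493 and 49399 normalized counts at 1 h, 34743 and 31960 at 22 h, and 44714 and 39757 in the table of both DOX times, so that mir-23b gave 47.6%, 47.9% and 47.1% of the pair. The miR-27 guide was listed mainly under mir-27b, which held 73.8%, 73.4% and 71.3% of the pair's 3p sum. These shares cover unlike sets of lengths. Forms of 17 and 18 bases were listed under mir-27b at 27422 and 20996 normalized counts in the table of both DOX times. Under mir-27a no 3p form of 17 bases was listed, and the highest of 18 bases was at 32.25. The cluster shares above take in the same forms.

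Some sequences stood under the paralog whose base they do not carry. The most abundant mir-27a sequence, printed above, was listed under mir-27a at 49361 normalized counts and under mir-27b at 2588 in the table of both DOX times, so that 4.98% of it stood under mir-27b. The 20-base sequence cacagtggctaagttcTgCt, with the bases of the printed mir-27b form in capitals, was listed at 5056 under mir-27b and at 231 under mir-27a. The 21-base sequence cacattgccagggattTccat, with the base of mir-23a, was at 3320 under mir-23a and 226 under mir-23b, which is 6.37% under the latter. These shares were close at 1 h, where they were 4.64% for the first sequence and 5.55% for the last. For the mir-24 guide, by contrast, each shared sequence was listed almost evenly, and the share of mir-24-1 lay between 49.85% and 50.25% for the forms of 18, 19 and 20 bases in every table.

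The members also differed in the start positions of their listed sequences. On the 3p arm, mir-27a, mir-27b, mir-24-2 and mir-24-1 each had a single start in all tables. For mir-23b, 1 sequence that began a base later, acattgccagggattAccact, held 2750 normalized counts in the table of both DOX times, or 6.92% of its 3p sum, against 5.92% at 1 h and 7.03% at 22 h. The later start of mir-23a held 0.112%, 0.100% and 0.139% of its 3p sum in these tables. The form of mir-23b is listed at the longest length of any member entry, 21 bases, and longer forms are not among the member entries.

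On the mir-24 passenger arm, the precursors differed in the starts they favoured, though the lead of start 14 in mir-24-2 rests largely on 1 sequence. The most abundant sequence at each start is printed for both, with the 13 bases that all of them share in capitals, so that the lower-case bases in front show how far each start lies from the common one.
mir-24-2 5p, start 12: taCCTACTGAGCTGAaacaca
mir-24-2 5p, start 13: aCCTACTGAGCTGAaacacag
mir-24-2 5p, start 14: CCTACTGAGCTGAaacacagt
mir-24-1 5p, start 6: tgCCTACTGAGCTGAtatca
mir-24-1 5p, start 7: gCCTACTGAGCTGAtatcag
mir-24-1 5p, start 8: CCTACTGAGCTGAtatcagt
In the table of both DOX times, 71.3% of the mir-24-2 passenger began at start 14, 27.7% a base earlier and 1.08% at start 12. Of the mir-24-1 passenger, 6.97% began at the equivalent start 8, 63.3% a base earlier and 29.8% at start 6. At 1 h the share at the common start was 72.8% for mir-24-2 and 5.72% for mir-24-1, and at 22 h, without the 21-base form of mir-24-2, it was 52.5% and 7.64%. The mir-24-1 passenger therefore lay mostly 1 or 2 bases upstream of the start that was commonest for mir-24-2, in each of the 3 tables. The 21-base form held 1516 of the 2491 normalized counts at start 14 in the table of both DOX times. A form with the same end from an earlier start would be longer than 21 bases, the longest length listed for any member.

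For values in single libraries, the means had to be taken apart. Every mean in the tables with DOX 22 h was a whole-number combination of the reads of 2 libraries, and names of predicted miRNAs in these tables give both as replicate 1 of their group. Both tables therefore compare 1 library with 1 library, the DOX 22 h library is the same in both, and there was no replicate check and no test of any difference between them. Of 1323 entries present in both tables, 1216 had only 1 possible split into reads, with 474736 reads in the DOX 22 h library, 440362 in the DMSO 22 h library and 623625 in the DOX 1 h library. Intervals given with reads are exact Poisson 95% intervals, those with ratios and shares are exact binomial 95% intervals, and all cover counting error only. Ratios are log2 of reads scaled by the size factors behind the deposited means, with 0.5 added to each count. DOX and DMSO at 1 h were not taken apart.

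Reads were recovered for 46 of the 63 member entries in both tables. They held 95.9% of the summed mean of the mir-27a 5p arm in the table of both DOX times, 92.8% of mir-27b 5p, 95.2% of mir-24-1 5p and 56.2% of mir-24-2 5p. On the guide arms they held only 28.7% of mir-23b, 12.02% of mir-23a, 4.82% of mir-27b and 0.431% of mir-27a, and nothing of the mir-24 guides. The most abundant guide sequences had several possible splits, and for the 20-base mir-24-2 guide 20 splits were possible, with 4727 to 114053 reads in the DOX 22 h library. Ratios of 3p arms below therefore describe the less abundant forms.

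**Figure D2:**
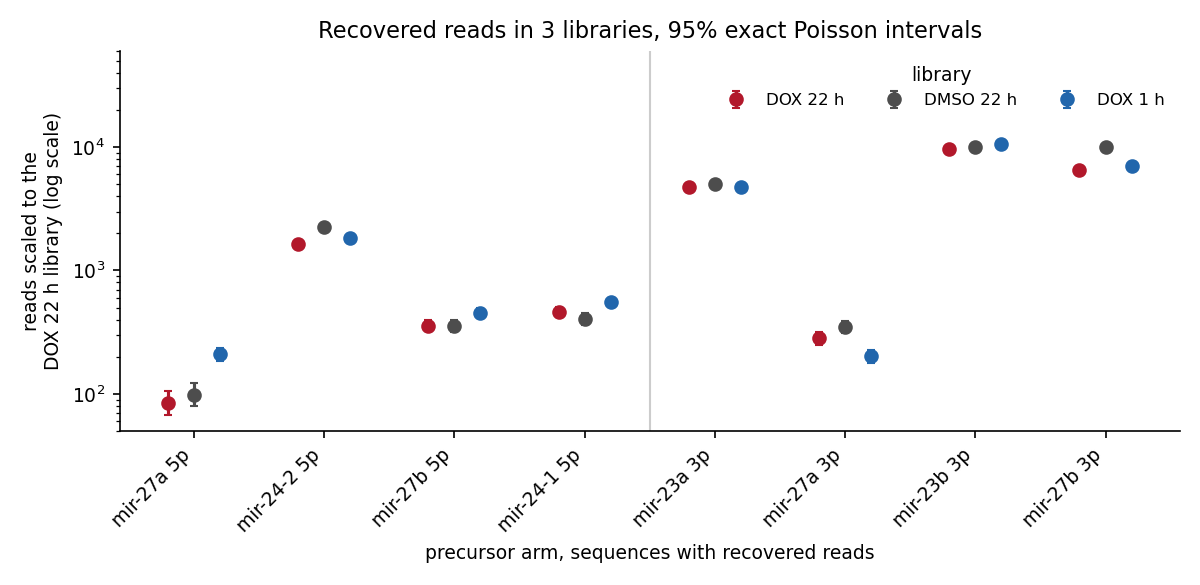
Recovered reads (y axis, log scale, scaled to the DOX 22 h library) in the DOX 22 h, DMSO 22 h and DOX 1 h libraries for 8 precursor arms (x axis), with exact Poisson 95% intervals. The mir-27a 5p arm stands highest in the DOX 1 h library, at 210.0 scaled reads against 85 and 99, and the mir-24-2 5p arm stands lowest in the DOX 22 h library, at 1642 against 2268 and 1823.

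Among the 8 arms with recovered reads, the mir-27a passenger had the widest gap between the DOX libraries. It had 85 reads in the DOX 22 h library (67.9 to 105), 88 in the DMSO 22 h library (70.6 to 108) and 270 in the DOX 1 h library (239 to 304). The DOX 1 h library was thus high, and the intervals of the libraries of 22 h overlapped. The log2 ratio was −1.30 for DOX 22 h over DOX 1 h (−1.67 to −0.95), or 2.46 times fewer scaled reads, and −0.22 for DOX 22 h over DMSO 22 h (−0.67 to 0.23).

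The gap lay mainly in the longer of its sequences. The 20-base form printed above had 41, 51 and 191 reads in the DOX 22 h, DMSO 22 h and DOX 1 h libraries, and its log2 ratio of DOX 22 h over DOX 1 h was −1.84 (−2.38 to −1.36). The 19-base form, without the last base, had 44, 37 and 79 reads and a log2 ratio of −0.47 (−1.05 to 0.07). The 20-base form made up 70.7% of the mir-27a 5p reads in the DOX 1 h library (64.9 to 76.1), 48.2% in the DOX 22 h library (37.3 to 59.3) and 58.0% in the DMSO 22 h library (47.0 to 68.4).

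The mir-27b passenger moved less. It had 357 reads in the DOX 22 h library (321 to 396), 317 in the DMSO 22 h library (283 to 354) and 584 in the DOX 1 h library (538 to 633). Its log2 ratio was 0.00 over DMSO 22 h (−0.22 to 0.23) and −0.35 over DOX 1 h (−0.54 to −0.16). The mir-27a share of the pair's 5p reads was accordingly 31.6% in the DOX 1 h library (28.5 to 34.9), 19.2% in the DOX 22 h library (15.7 to 23.2) and 21.7% in the DMSO 22 h library (17.8 to 26.1). The interval of the DOX 1 h library lies above both others, which overlap.

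The 21-base sequence agcttagctgattggtgaacT, which the study lists as miR-27a-5p, stands under mir-27b in the tables, and its capital marks the base at which it differs from the more abundant 21-base form agcttagctgattggtgaacA. It had 7, 16 and 29 reads in the DOX 22 h, DMSO 22 h and DOX 1 h libraries, and log2 ratios of −1.31 over DMSO 22 h (−2.88 to −0.001) and −1.61 over DOX 1 h (−3.12 to −0.47). The form ending in A had 99, 119 and 209 reads, with log2 ratios of −0.43 (−0.83 to −0.04) and −0.71 (−1.07 to −0.36). The 20-base form that both extend had 152, 122 and 220 reads, with log2 ratios of 0.15 (−0.20 to 0.50) and −0.17 (−0.48 to 0.13). Both 21-base forms thus stood lower in the DOX 22 h library than in either other library. The study describes miR-27a-5p as increased after 22 h, and why the directions differ was not tested. The 20-base form stood lower than in the DOX 1 h library only, and both of its intervals include 0.

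The mir-24 passengers differed from each other between the libraries of 22 h. The mir-24-2 passenger had 1642 reads in the DOX 22 h library (1564 to 1723), 2017 in the DMSO 22 h library (1930 to 2107) and 2344 in the DOX 1 h library (2250 to 2441) over 8 sequences, without its 21-base form. Its log2 ratio was −0.47 over DMSO 22 h (−0.56 to −0.37) and −0.15 over DOX 1 h (−0.24 to −0.06). Of the 8 sequences, 7 stood lower in the DOX 22 h library than in the DMSO 22 h library, and over all entries 607 of 1216 did.

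The mir-24-1 passenger had 459 reads in the DOX 22 h library (418 to 503), 360 in the DMSO 22 h library (324 to 399) and 715 in the DOX 1 h library (664 to 769). Its log2 ratio was 0.18 over DMSO 22 h (−0.02 to 0.38) and −0.28 over DOX 1 h (−0.45 to −0.11), and the latter was 0.16 for its commonest sequence alone. Its share of the pair's recovered 5p reads was 15.1% in the DMSO 22 h library (13.7 to 16.6), below the 21.9% in the DOX 22 h library (20.1 to 23.7) and the 23.4% in the DOX 1 h library (21.9 to 24.9).

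By cluster, the 5p reads of the mir-23a cluster had a log2 ratio of −0.46 for DOX 22 h over DMSO 22 h (−0.55 to −0.36), and those of the mir-23b cluster 0.10 (−0.05 to 0.25). For DOX 22 h over DOX 1 h they were −0.24 (−0.32 to −0.15) and −0.31 (−0.44 to −0.18). The intervals of the clusters lay apart in the first comparison and overlapped in the second. Most of the mir-23a cluster value is mir-24-2, which gave 1642 of its 1727 reads in the DOX 22 h library. The median over all entries with at least 20 reads was 0.00 and 0.04 in the same comparisons, and both comparisons share the DOX 22 h library.

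**Figure D3:**
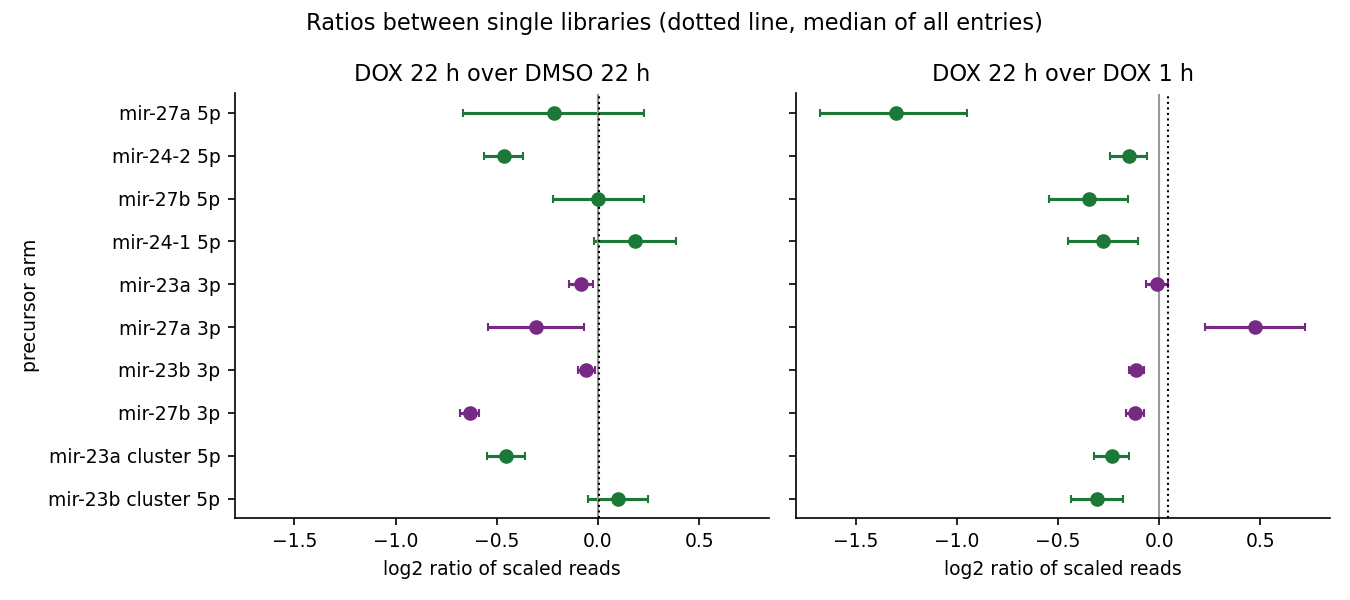
Log2 ratio of scaled reads (x axis) between single libraries for 8 precursor arms and for the 5p arms of each cluster (y axis), with exact binomial 95% intervals, 5p arms in green, 3p arms in purple and the median of all entries as a dotted line. The mir-27a 5p arm lies lowest in DOX 22 h over DOX 1 h, at −1.30, and the mir-27b 3p sequences lie lowest in DOX 22 h over DMSO 22 h, at −0.63, and rest on 4.82% of that arm.

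The 5p start of the mir-24 members differed more between the precursors than between the libraries. The earliest start of mir-24-1, at base 6, held 27.9% of its reads in the DOX 22 h library (23.8 to 32.2), 23.6% in the DMSO 22 h library (19.3 to 28.3) and 34.1% in the DOX 1 h library (30.7 to 37.7). The equivalent start 12 of mir-24-2 held 0.913%, 0.694% and 1.88%. The share at the common start was 6.54%, 8.89% and 4.06% for mir-24-1, and 51.2%, 53.5% and 47.8% for the mir-24-2 sequences with recovered reads. In both precursors the DOX 1 h library had the highest share at the earliest start and the lowest at the common start, and for mir-24-1 the interval of the DOX 1 h library at the earliest start overlaps that of DOX 22 h and not that of DMSO 22 h.

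**Figure D4:**
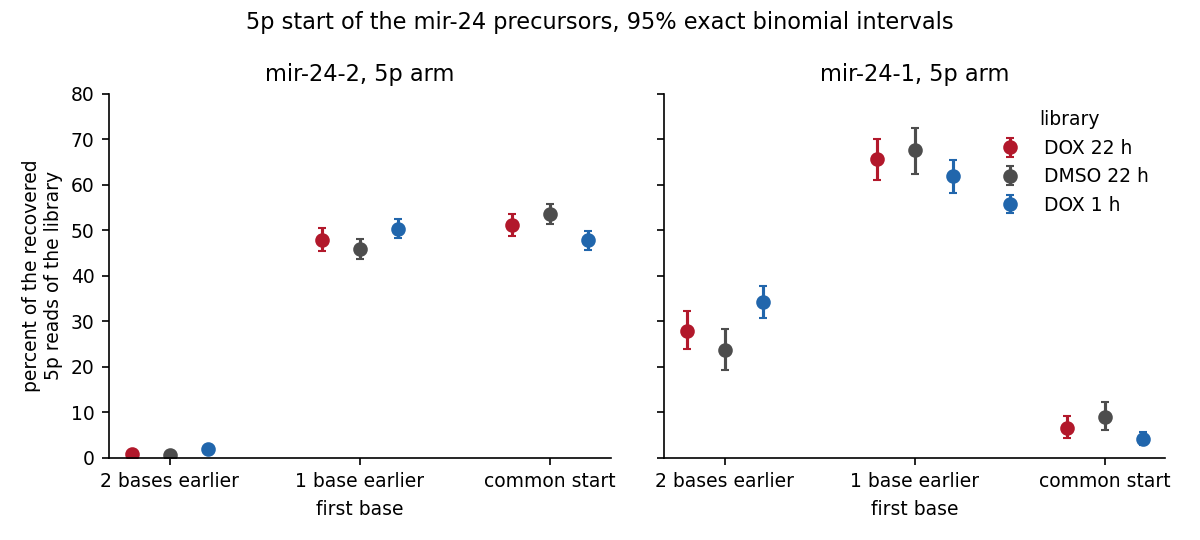
Percent of the recovered 5p reads (y axis) that began at the start common to both precursors, 1 base earlier or 2 bases earlier (x axis), for mir-24-2 and mir-24-1 in 3 libraries, with exact binomial 95% intervals. Over the libraries mir-24-1 has 61.8% to 67.5% of its reads 1 base earlier and 4.06% to 8.89% at the common start, where mir-24-2 has 47.8% to 53.5%.

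The sequence tgcctactgagctgatatc of 19 bases, which the study lists as miR-24-1-5p and as downregulated at 22 h, belongs to that earliest start. It had 27 reads in the DOX 22 h library, 14 in the DMSO 22 h library and 43 in the DOX 1 h library. Its log2 ratio was 0.75 over DMSO 22 h (−0.20 to 1.82) and −0.30 over DOX 1 h (−1.06 to 0.42), and both intervals include 0. The direction against DMSO 22 h is thus opposite to the study's, and why was not tested. The commonest mir-24-1 form, gcctactgagctgatatcag, had 148, 76 and 170 reads and log2 ratios of 0.79 (0.38 to 1.21) and 0.16 (−0.16 to 0.49).

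On the guide arm, the miR-23 sequences with recovered reads stood close in all 3 libraries. The mir-23a sequences had 4725 reads in the DOX 22 h library, 4453 in the DMSO 22 h library and 6114 in the DOX 1 h library, and log2 ratios of −0.08 (−0.14 to −0.02) and −0.01 (−0.06 to 0.05). Those of mir-23b had 9679, 8957 and 13462 reads, and log2 ratios of −0.06 (−0.10 to −0.02) and −0.11 (−0.15 to −0.08). All of these ratios lay between −0.11 and −0.01 on the log2 scale, and over the mir-23a sequences that 1 table alone could split the ratio against DMSO 22 h was 0.11.

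Within the miR-23 guide, the forms of 16 and 17 bases departed from the longer ones in DOX 22 h over DOX 1 h. The 17-base form of mir-23a, which ends at the base that names the precursor, had 434, 330 and 355 reads in the DOX 22 h, DMSO 22 h and DOX 1 h libraries, and a log2 ratio over DOX 1 h of 0.65 (0.45 to 0.86). That of mir-23b had 201, 214 and 195 reads and a log2 ratio of 0.41 (0.12 to 0.70). The 16-base form, which ends before that base, had log2 ratios of 0.68 (0.22 to 1.14) as listed under mir-23a and 0.57 (0.12 to 1.04) as listed under mir-23b.
The forms of 18 bases were at −0.05 and 0.03 and the most abundant recovered forms of 21 bases at −0.09 and −0.17. Entries of 16 and 17 bases from all other precursors had medians of 0.04 and 0.17 in the same comparison. Against DMSO 22 h, the forms of 16 and 17 bases lay on both sides of 0, between −0.26 and 0.23. The 15-base form, recovered under mir-23b only, had 12, 15 and 18 reads and log2 ratios of −0.48 over DMSO 22 h (−1.72 to 0.70) and −0.20 over DOX 1 h (−1.41 to 0.91).

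**Figure D5:**
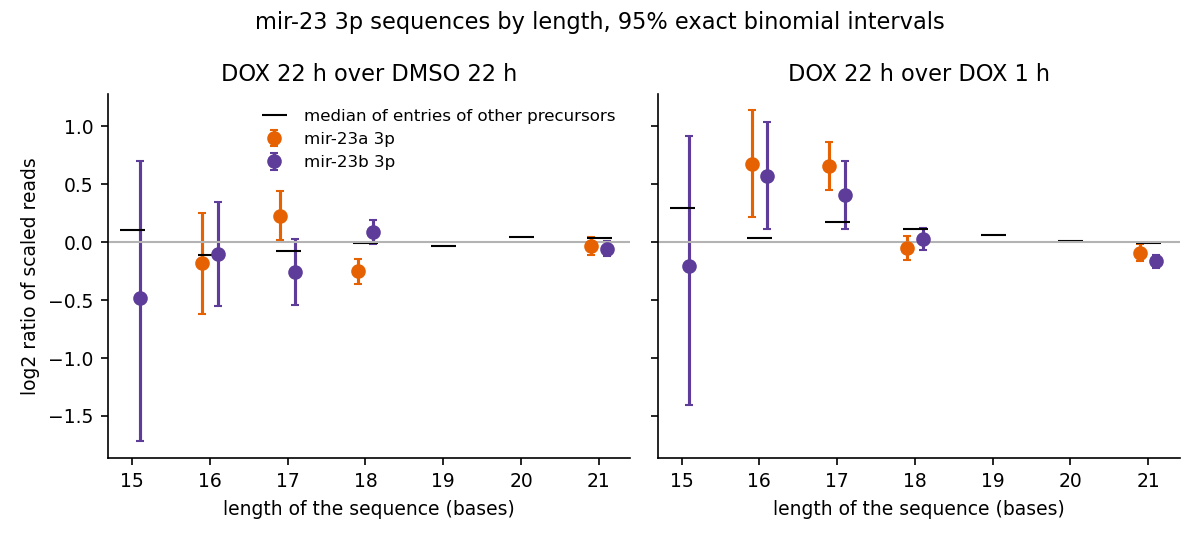
Log2 ratio of scaled reads (y axis) against sequence length in bases (x axis) for the recovered mir-23a and mir-23b 3p sequences at their main start, with exact binomial 95% intervals, and the median of entries of other precursors at each length as a bar. In DOX 22 h over DOX 1 h the forms of 16 and 17 bases lie between 0.41 and 0.68 and those of 18 and 21 bases between −0.17 and 0.03.

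Forms of 15 to 17 bases made up 11.1% of the recovered mir-23a guide reads in the DOX 22 h library (10.2 to 12.1), 9.50% in the DMSO 22 h library (8.65 to 10.4) and 7.02% in the DOX 1 h library (6.39 to 7.69). For mir-23b they made up 3.11% (2.77 to 3.48), 3.49% (3.12 to 3.896) and 2.15% (1.91 to 2.41). The DOX 1 h library had the lowest share in both. These are shares of the recovered forms, which leave out the abundant forms of 19 and 20 bases. The 14-base sequence cacattgccaggga, which the study lists as miR-23b-3p, ends before the base at which the precursors differ and was listed under both. It had 13.0 normalized counts under mir-23a and 11.6 under mir-23b at 1 h, and 5.86 and 4.03 in the table of both DOX times.

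For miR-27, most of the recovered guide reads came from forms listed under both members, and 2 rare mir-27a forms, with 25 and 11 reads in the DOX 22 h library, were listed under mir-27a alone. The 20-base form with the bases of mir-27b had, under mir-27b, 4524 reads in the DOX 22 h library, 7178 in the DMSO 22 h library and 5650 in the DOX 1 h library. Its log2 ratio was −0.84 over DMSO 22 h (−0.89 to −0.78) and 0.04 over DOX 1 h (−0.02 to 0.10). Under mir-27a, the identical sequence had 246, 259 and 207 reads and log2 ratios of −0.24 (−0.50 to 0.01) and 0.61 (0.34 to 0.88). The same bases thus gave different ratios under the 2 names, with intervals that do not overlap. The 19-base form with the bases of mir-27a had 1939, 1740 and 3375 reads under mir-27b, with log2 ratios of −0.01 (−0.11 to 0.08) and −0.44 (−0.52 to −0.36), and could not be split under mir-27a.

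Few single member sequences passed a 2-fold limit, counted over sequences with at least 20 reads in the pair of libraries. In DOX 22 h over DMSO 22 h, 1 of 46 stood more than 2-fold higher, where 6.09% of all entries did, and 2 stood more than 2-fold lower, where 4.85% of all entries did. The higher one was the 18-base form of mir-27b 5p, with 22 reads against 8 and a log2 ratio of 1.24 (0.07 to 2.67). The lower ones were the 21-base form of mir-27b 5p that the study lists, given above, and a 21-base form of mir-27a 3p, with 11 reads against 26 and a log2 ratio of −1.37 (−2.58 to −0.34).

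In DOX 22 h over DOX 1 h, 2 of 46 member sequences stood more than 2-fold higher, where 5.21% of all entries did, and 4 stood more than 2-fold lower, where 1.68% of all entries did. The 4 lower ones were all passenger forms of 20 or 21 bases, namely the 20-base mir-27a form and the 21-base mir-27b form given above, a mir-24-1 form from start 6 with 16 reads against 53 and a mir-24-2 form from start 12 with 15 reads against 44. Their log2 ratios were −1.84, −1.61, −1.33 (−2.27 to −0.54) and −1.16 (−2.14 to −0.32). The higher ones were a 19-base mir-27b 5p form, with 20 reads against 10 and a log2 ratio of 1.33 (0.20 to 2.62), and a 17-base mir-24-2 5p form, with 42 reads against 26 and a log2 ratio of 1.04 (0.32 to 1.82). Of the 27 passenger sequences, 20 stood lower in the DOX 22 h library than in the DOX 1 h library, with a median log2 ratio of −0.17, and 14 stood lower than in the DMSO 22 h library, with a median of −0.07. Over all entries, 538 of 1190 stood lower than in the DOX 1 h library and 607 of 1216 lower than in the DMSO 22 h library. The passenger sequences are overlapping forms of the same few arms and are not independent.

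The 3 precursor arms closest to the summed recovered 3p reads of the members over the 3 libraries, by the Euclidean distance of centred log2 scaled reads among 182 arms, were mir-203a 3p, mir-10b 5p and mir-450b 5p, at distances of 0.017, 0.021 and 0.022. The members' recovered 3p reads, which hold 4.60% of the 3p summed mean, stood highest in the DMSO 22 h library and lowest in the DOX 22 h library, by 0.27 on the log2 scale. This rests on 1 sequence: without the 20-base mir-27b form listed under both members, which was left out after seeing the data, the log2 ratio over DMSO 22 h was −0.06 (−0.10 to −0.03), and the DOX 1 h library was highest, with 18054 scaled reads against 17385 and 16625.

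The labelled cell type was checked against marker miRNAs. All 7 cardiomyocyte precursors, from mir-1, mir-133a, mir-208 and mir-499a, were listed in each table and held 33.5% of the summed means at 1 h, 35.2% at 22 h and 37.1% in the table of both DOX times. The smooth muscle precursors mir-143 and mir-145 held 19.4%, 20.96% and 19.8%, nearly all of it mir-143, with mir-145 alone at 0.385%, 0.321% and 0.357%. The endothelial mir-126 held 4.41%, 3.83% and 3.24%. The 3 fibroblast precursors together held 0.197% to 0.266%, the 3 red cell precursors 0.0388% to 0.0448% and the 3 leukocyte precursors 0.00631% to 0.00884%. The members are also expressed in vascular cells, and how much of their level comes from such cells was not tested.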

How the data were processed

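Small RNA libraries (TruSeq Small RNA kit, Illumina HiSeq) had been aligned by the authors to human sequences (hg19 in the submitters' processing notes) in the BaseSpace Small RNA application, version 1.0, and compared with DESeq2. The authors deposited 3 tables, each with a mean normalized count (a signal, reads divided by size factors) over both groups of a comparison. Means of the tables of 1 h and 22 h were deposited without their decimal mark (so as other values). Fold changes, standard errors, p-values, adjusted p-values, a status and a pair of columns named control and comparison were not used.

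The decimal mark was restored by matching each entry to the third table, with listed means of at least 10, for 1506 of 1610 entries at 1 h and 1323 of 1335 at 22 h. Each mean with DOX 22 h equalled a sum of whole reads of 2 libraries, with weights of 731 and 822 at 22 h and 9 and 7 for both DOX times. The library with weight 731 also split the third table in 1052 of 1052 entries with 1 split, where 14.3% would by chance, and was taken as DOX 22 h. Reads were used where 1 split satisfied both tables, within 1e-05. In means simulated from whole reads with the same weights, 1176 of 1288 entries had 1 split. Simulated reads always satisfy both means, so with weights and decimal marks found rightly that 1 split had to be the true one. The simulation therefore shows how many entries can be split, and it does not test whether real means hold 1 library a side. Simulated reads lay near the third table, so ambiguous decimal marks were not tested either.

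Arms were set by start position, below 30 for 5p. Named sequences were the commonest of each arm and table, those the study lists under a member's name, and those with a log2 ratio of at least 1 and at least 20 reads. Members and lists were chosen with earlier results of these data known. The recovered reads set the precision of ratios, and the full depth of each library is not given in the sources used here. Intervals cover counting error only, since each side of a comparison was 1 library. Reads carry no molecular identifiers, so repeated copies of a molecule could not be removed from the counts. Python 3.11.15, numpy 2.4.6, scipy 1.17.1 and matplotlib 3.10.9 were used. Alternatives were an added count of 1, median centring, the commonest sequence alone, splits from 1 table alone, unshared sequences, other minimums and the other table for the decimal mark.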

Additional observations from a re-analysis of the deposited data

How the results depend on the processing

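No paired analysis was possible because the tables hold no values per replicate library, and leaving out a replicate could not be run for the same reason. Where an alternative turned the sign of a log2 ratio whose interval excluded 0, it took in fewer sequences of the arm: this held for mir-23a 3p against DMSO 22 h and for mir-27a 3p, mir-27b 3p and mir-24-1 5p against DOX 1 h. Of 69 alternative values of the 16 log2 ratios, 54 stayed within the interval, and of 42 alternative arm shares 33 stayed within 1.5 times. For DOX 22 h over DMSO 22 h, the commonest sequence alone gave −0.60 for mir-24-2 5p, −0.83 for mir-27b 3p and 0.79 for mir-24-1 5p. Sequences under 1 member only gave −0.15 for mir-23a 3p and −0.67 for mir-27a 3p, and splits from 1 table alone gave 0.11 for mir-23a 3p and −0.01 for mir-23b 3p. For DOX 22 h over DOX 1 h, the commonest sequence gave −0.091 for mir-23a 3p, −1.84 for mir-27a 5p, −0.17 for mir-23b 3p, 0.042 for mir-27b 3p and 0.16 for mir-24-1 5p, sequences under 1 member only gave 0.10 for mir-23a 3p and −0.22 for mir-27a 3p, and median centring gave −0.16 for mir-23b 3p. With at least 100 reads, the counts past 2-fold over all entries fell to 10 higher and 14 lower against DMSO 22 h, and to 9 higher and 3 lower against DOX 1 h. The table of both DOX times alone gave few or no splits for the members. Chosen after seeing the data, the summed 3p reads without the 20-base mir-27b form gave −0.06 against DMSO 22 h (−0.27 with it) and −0.12 against DOX 1 h. The cause of each change was not tested beyond the fewer sequences or entries each of these takes in. Depth limits the miR-23 passengers, which are near the least listed mean of 10, and the abundant guide forms could not be split at all.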
